A study of Mus musculus with 20 samples.

Results

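The genes described here are the interleukins, the tumour necrosis factor (TNF) family and their receptors in mouse white adipose tissue. They were chosen by gene symbol alone: every gene in the count tables whose symbol is Il followed by a digit, is Tnf, or is Tnfsf or Tnfrsf followed by a digit. The rule found 117 of 56805 genes, and 89 of the 117 had enough reads to be tested. By role the 117 were 38 interleukin ligands, 38 interleukin receptor chains, 12 TNF ligands, 17 TNF receptors, 9 antagonists or decoy receptors and 3 genes of another kind (Il4i1, an amino acid oxidase, and the antisense transcripts Tnfsf13os and Il1bos).

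RNA was sequenced from 20 mice in 4 groups of 5. High-fat tea mice ate a high-fat diet and drank Tibetan tea, a fermented dark tea, as an extract in water; high-fat water mice ate the high-fat diet and drank water; chow tea mice ate chow and drank the tea; chow water mice ate chow and drank water. All groups were kept for 10 weeks, were free to eat and drink, and lived under the same light cycle. The sources used here do not give the fat depot, nor the sex, age and strain of the mice.

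Interleukins and TNF family ligands are secreted or membrane-bound signals between cells of the immune system and of tissues. Most interleukin receptors are built from a ligand-binding chain and a chain shared between several cytokines, and signal through JAK kinases and STAT proteins. TNF receptors and receptors of the interleukin-1 family signal through adaptor proteins to NF-kappaB and MAP kinases. Antagonists such as the interleukin-1 receptor antagonist occupy a receptor without a signal, and decoy receptors hold a ligand without passing one on. In fat, macrophages, lymphocytes, progenitor cells and the fat cells themselves make and sense these signals, and fat of obese mice is known for more macrophages and more TNF.

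The libraries held 53047057 to 93314761 reads in genes. All 7 fat-cell markers checked (Adipoq, Plin1, Lipe, Cidec, Pparg, Lep and Cfd) had reads in every group. Levels below are CPM, the usual unit for read counts scaled to library size. The 7 fat-cell markers summed to 4527 to 30522 CPM in high-fat tea and 8068 to 13828 CPM in high-fat water mice. In chow tea mice they summed to 22971 to 32369 CPM and in chow water mice to 9148 to 29184 CPM. The share of fat cells in the samples was not tested. Some libraries carried transcripts of other organs. In chow water mouse 1, pancreas acinus genes such as Pnlip and Cela1 summed to 593950 CPM, against at most 69.3 CPM in each of the rest. In high-fat tea mouse 4, kidney genes summed to 23215 CPM, against at most 1644 CPM elsewhere, and in high-fat water mouse 4 male reproductive tract genes summed to 27990 CPM and adrenal cortex genes to 12951 CPM. Intestine genes summed to 5083 CPM in chow water mouse 1 and to 662 CPM in high-fat tea mouse 4, against at most 87.8 CPM elsewhere. Several members were high in just these libraries. Il22ra1 had 86.9 CPM and Il18 26.0 CPM in chow water mouse 1, and Tnfrsf21 had 301 CPM and Tnfsf10 105 CPM in high-fat tea mouse 4. Skeletal muscle genes summed to 28773 CPM in high-fat tea mouse 1 and 25516 CPM in high-fat water mouse 5, to between 3739 and 7241 CPM in high-fat tea mouse 3, high-fat water mouse 3, chow tea mouse 1 and chow water mouse 2, and to at most 428 CPM elsewhere. Adrenal genes also reached 623 CPM in high-fat tea mouse 2. The tests were also run without the 3 libraries with pancreas, kidney or reproductive tract transcripts, and libraries with muscle were left out one at a time. Levels per length, their order and summed levels are given with all 20 libraries only.

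Receptors were more abundant than ligands. Of the 50 ligands of both families 27 passed the filter on low counts, against 52 of the 55 receptors, and 8 of the 9 antagonists and decoys also passed. 7 ligands had no read in any library: Il17a, Il24, Il20, Il36a, Il1f10, Il22 and Il9. A count of 0 in all 20 libraries allows a level of up to 0.00203 CPM before scaling, which is 3 reads of 1475375883 and covers counting error alone. This limit takes reads as independent. Both reads of a pair were counted, so the limit for independent fragments is higher. The other ligands below the filter were Il17f, Il19, Il36b, Il2, Il21, Il31, Il17c, Il22b, Il23a, Il13, Il5, Il3, Il25, Il17b, Tnfsf4 and Tnfsf11. The receptor chains below it were Il11ra2, Il20ra and Il1rapl2, and the antagonist was Il36rn.

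Divided by exonic length, the median level was 0.339 CPM per kb over the 27 ligands that passed and 1.16 CPM per kb over the 52 receptors that passed. The most abundant receptors were Tnfrsf1a, the ubiquitous TNF receptor with a death domain, at 63.4 CPM per kb, and Il6st, the gp130 chain shared by interleukin-6 and related cytokines, at 44.2 CPM per kb. Behind Tnfrsf1a came Tnfrsf1b (the other TNF receptor) at 13.3, Tnfrsf21 (death receptor 6) at 10.5, Tnfrsf12a (the TWEAK receptor Fn14) at 8.39 and Tnfrsf14 (HVEM) at 5.37 CPM per kb. Behind Il6st came Il6ra, the interleukin-6 binding chain, at 13.2, Il15ra at 11.5, Il11ra1 at 11 and Il4ra, which serves interleukin-4 and interleukin-13, at 10.4 CPM per kb. The leading interleukins were Il34, a ligand of the macrophage receptor CSF1R, at 7.39, Il18 at 4.35, the alarmin Il33 at 3.73, Il15 at 2.49 and Il17d at 1.82 CPM per kb. Among TNF ligands Tnfsf10 (TRAIL) had 5.71, Tnfsf12 (TWEAK) 5.48, Tnfsf13 (APRIL) 0.954, Tnfsf13b (BAFF) 0.584 and Tnfsf14 (LIGHT) 0.403 CPM per kb. The antagonists and decoys with the highest levels were Il18bp, which binds interleukin-18, at 1.95, the TRAIL decoy Tnfrsf22 at 1.52, Tnfrsf11b (osteoprotegerin) at 1.42, Il1rn at 1.21 and Tnfrsf23 at 0.934 CPM per kb. The classical inflammatory ligands stood far down this order, with Il1b at 0.624, Tnf at 0.211, Il10 at 0.197 and Il6 at 0.0478 CPM per kb. These means include chow water mouse 1 and high-fat tea mouse 4, which raise Il18, Tnfrsf21 and Tnfsf10. The places of these genes in the order were not worked out without those libraries.

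**Figure D1:**
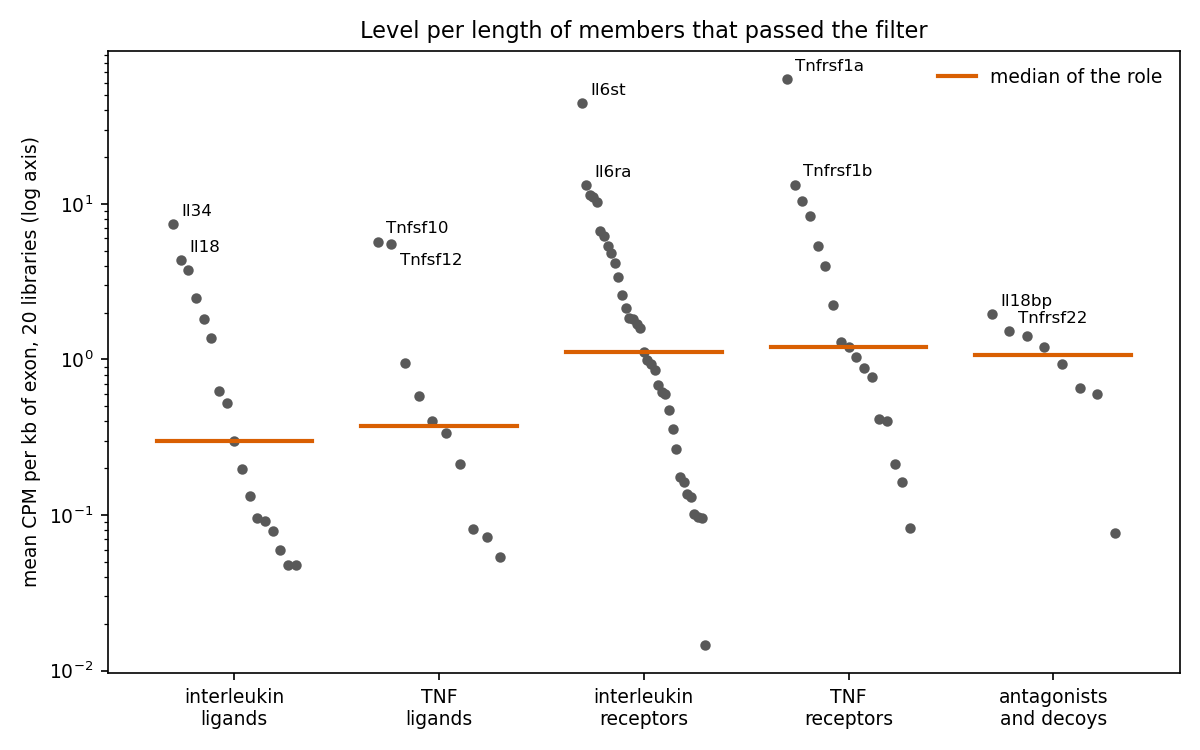
Mean level of each tested member over 20 libraries, in CPM per kb of exon on a log axis, by role, with the median of each role as a line. The medians are 0.301 for interleukin ligands, 0.371 for TNF ligands, 1.12 for interleukin receptors, 1.21 for TNF receptors and 1.07 CPM per kb for antagonists and decoys.

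Summed over members and not divided by length, receptors stood far above ligands in every group. The receptors Il6st, Tnfrsf1a and Il6ra alone averaged 491, 164 and 114 CPM over the 20 libraries. Receptors of both families summed to 1333 ± 116 CPM in high-fat tea, 1298 ± 103 CPM in high-fat water, 1365 ± 73.2 CPM in chow tea and 1270 ± 163 CPM in chow water mice (SD, n = 5 each). Ligands summed to 117 ± 41.4 CPM in high-fat tea, 107 ± 11.1 CPM in high-fat water, 97.8 ± 19.7 CPM in chow tea and 78.9 ± 23.9 CPM in chow water mice (SD, n = 5 each). The high-fat tea ligand sums reached 188 CPM, and their median was 104.3 CPM, against 103.7 CPM in high-fat water mice. In high-fat tea mouse 4, the library with kidney and intestine transcripts, Tnfsf10 had 105 CPM and the receptor Tnfrsf21 301 CPM. No sum was made without that library. Antagonists and decoys summed to 23.6 ± 6.69 CPM in high-fat tea, 50.1 ± 15.6 CPM in high-fat water, 23.7 ± 2.48 CPM in chow tea and 21.2 ± 4.48 CPM in chow water mice (SD, n = 5 each). In high-fat water mice the 5 sums ran between 36.3 and 76.0 CPM, above the highest library of any other group at 31.6 CPM. Il1rn made up 21.2 CPM of the mean in high-fat water mice. Without Il1rn the class summed to 20.2 ± 5.21 CPM in high-fat tea, 29.0 ± 5.28 CPM in high-fat water, 22.6 ± 2.21 CPM in chow tea and 20.1 ± 4.69 CPM in chow water mice (SD, n = 5 each). The high-fat water libraries (24.6 to 38.1 CPM) then overlapped the chow tea (19.8 to 25.5 CPM) and chow water libraries (14.4 to 27.1 CPM) but not the high-fat tea libraries (11.7 to 24.3 CPM). These sums were not tested.

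High-fat diet in water-drinking mice was set against chow to ask how the diet alone changed these genes. The interleukin-1 receptor antagonist Il1rn rose 18.9-fold, the interleukin-7 receptor chain Il7r 5.38-fold and the interleukin-27 receptor chain Il27ra 2.53-fold. The interleukin-22 decoy Il22ra2 fell 12.7-fold. Tnfsf12, Tnfrsf23, Il7 and Il17d rose by smaller amounts, and Il6ra and Il22ra1 fell, Il22ra1 on the strength of 1 chow water library. Tnf, Il1b, Il6 and Il10 did not pass the test.

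By edgeR's quasi-likelihood F test with Benjamini-Hochberg adjustment over all 21306 genes tested, 10 of the 89 members (11.2%) passed at an adjusted p below 0.05, against 15.2% of all genes. Of the 10, 7 were higher and 3 lower in high-fat water mice, where 8.06% of all genes were higher and 7.11% lower. The share of members called was thus not above that of all genes. The groups did not overlap in 8 members that were higher and 2 that were lower in high-fat water mice, 11.2% of the 89 against 12.9% of all genes (7.34% higher and 5.59% lower). Over the 89 tested members the median log2 fold change was 0.26, against -0.00 over all genes tested. Without the 3 libraries with pancreas, kidney or reproductive tract transcripts, 18 of 90 members passed, 14 higher and 4 lower, against 21.2% of all genes in that fit, and 9 of them were among the 10. The 9 added, which are named here after their values were seen, were Il11, Il15, Il15ra, Il2ra, Il2rg, Il3ra, Tnfrsf11a, Tnfrsf13b and Tnfsf10. Without high-fat water mouse 5, the one with most muscle RNA in its group, 8 members passed, against 11.7% of all genes in that fit. The calls of Il6ra and Il22ra1 were then lost. In bulk tissue a change in the number of cells of a type and a change in RNA per cell cannot be told apart.

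**Figure D2:**
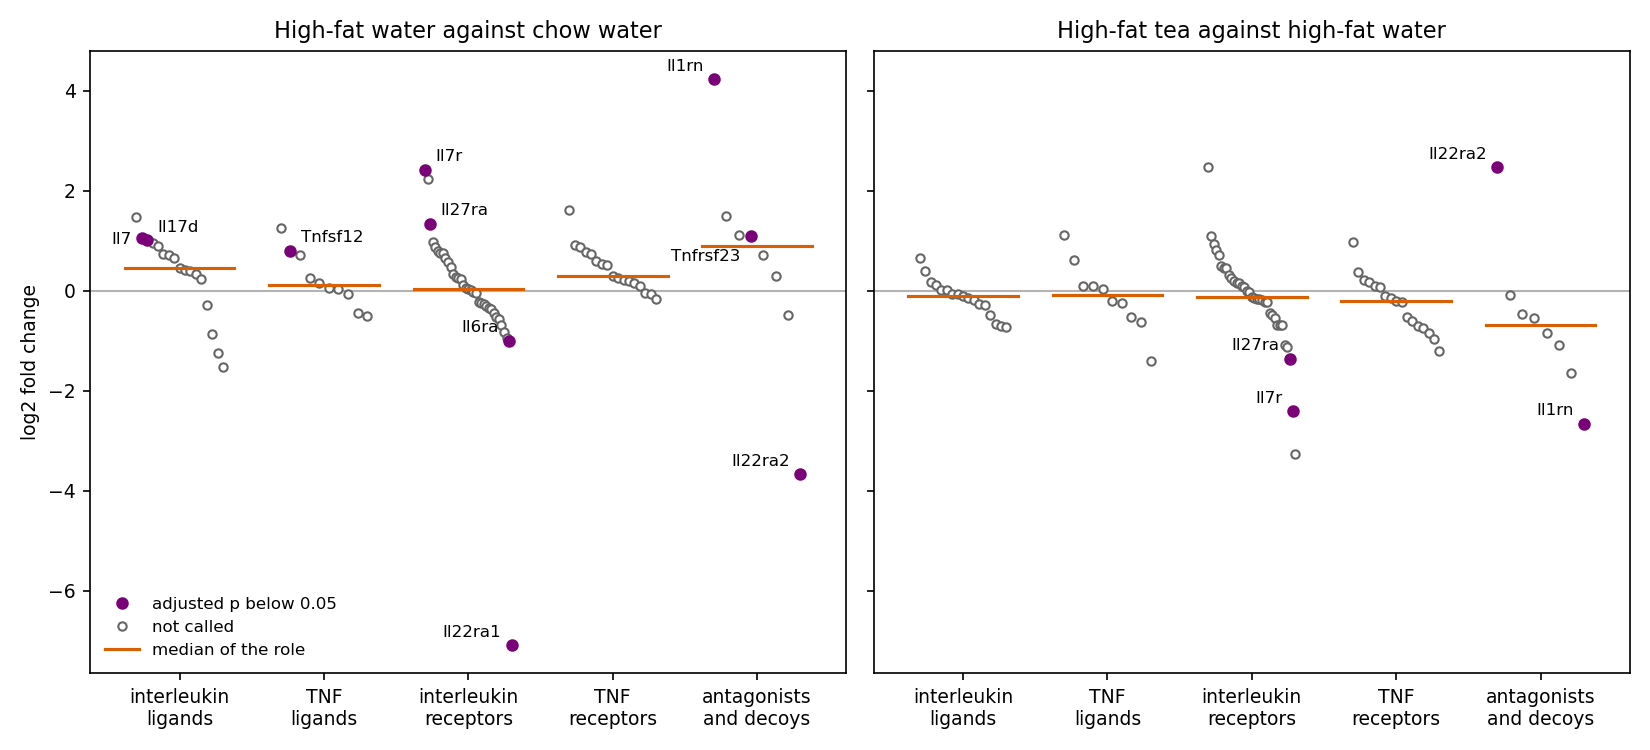
Log2 fold change of each tested member by role, for high-fat water against chow water and for high-fat tea against high-fat water; filled points passed the edgeR test and are named. The largest rise on the diet is Il1rn (4.24) and the lowest point is Il22ra1 (-7.08), and with tea on the high-fat diet Il1rn, Il7r and Il27ra lie below 0 and Il22ra2 above it.

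Among the 27 ligands that passed the filter, 3 were called, all higher in high-fat water mice, and the median log2 fold change was 0.40. Of the 52 receptors 4 were called, 2 higher and 2 lower, with a median of 0.21, and none of the 17 TNF receptors was called, although 14 of them had a fold change above 0. Among the 8 antagonists and decoys 3 were called, 2 higher and 1 lower, with a median of 0.91. Of these 8, 6 had an unadjusted p below 0.05, against 30.8% of all genes. The shares called were 11.1% of ligands, 7.69% of receptors and 37.5% of antagonists and decoys, against 15.2% of all genes. Over all genes 8.06% were higher and 7.11% lower, with a median log2 fold change of -0.00. Apart from Il22ra1, the largest fitted changes among the 89 were those of the antagonist Il1rn and the decoy Il22ra2.

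Il1rn, on chromosome 2 (GRCm39, 24226865 to 24241506, plus strand), encodes the secreted antagonist that blocks the interleukin-1 receptor. Its levels were 47.7, 19.4, 15.1, 13.4 and 10.2 CPM in high-fat water mice 1 to 5 and 1.47, 0.923, 0.641, 1.78 and 0.803 CPM in chow water mice 1 to 5. Every high-fat water library lay above every chow water library, and high-fat water mouse 1 was the highest. The means were 21.2 ± 15.2 CPM in high-fat water and 1.12 ± 0.481 CPM in chow water mice (SD, n = 5 each), a log2 fold change of 4.24 (SE 0.69, edgeR adjusted p = 0.00105). The reads behind these levels ranged from 862 to 3900 per library in high-fat water and from 45 to 140 in chow water mice.

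Neither the agonist nor the receptor of the same system passed the test. Il1b, the main secreted interleukin-1, had 0.906, 1.12, 0.857, 3.28 and 1.13 CPM in high-fat water mice and 2.28, 0.332, 0.359, 1.41 and 1.46 CPM in chow water mice. These ranges overlapped, and the log2 fold change was 0.33 (SE 0.64, edgeR adjusted p = 0.762). Il1r1, the signalling receptor, averaged 28.4 ± 5.39 CPM in high-fat water and 28.9 ± 6.97 CPM in chow water mice (SD, n = 5 each), a log2 fold change of -0.03 (SE 0.18, edgeR adjusted p = 0.941). The fold change of Il1b turned to -0.21 when high-fat water mouse 4 was left out.

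Il7r, on chromosome 15 (GRCm39, 9505874 to 9530262, minus strand), encodes the chain that interleukin-7 and TSLP receptors share. It had 44.7, 22.5, 20.8, 14.1 and 13.5 CPM in high-fat water mice, against 7.43, 4.15, 4.81, 2.80 and 2.35 CPM in chow water mice. Mouse 1 was highest in both groups, which did not overlap. The means were 23.1 ± 12.7 CPM in high-fat water and 4.31 ± 2.01 CPM in chow water mice (SD, n = 5 each), a log2 fold change of 2.43 (SE 0.48, edgeR adjusted p = 0.00365). Il7, its ligand and a survival factor of lymphocytes (chromosome 3, 7635054 to 7678820, minus strand), was higher as well. It had 2.62, 2.05, 1.73, 2.31 and 2.05 CPM in high-fat water mice and 1.07, 1.15, 1.60, 0.496 and 0.828 CPM in chow water mice. The 5 high-fat water values all lay above the chow water values, with a log2 fold change of 1.06 (SE 0.29, edgeR adjusted p = 0.0221). That call was lost without high-fat water mouse 1, at an adjusted p of 0.0581.

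Il1rn and Il7r changed together in this comparison and in the comparison of tea with water on the high-fat diet, so the sequences at their starts are shown. The windows are from RefSeq (GRCm38.p6), from 250 bases before to 50 after an annotated start, each 5′ to 3′ on the gene's strand. Capitals mark the matches among 5 motifs searched on both strands.
Il1rn, first start, chr2:24336610-24336909, plus strand: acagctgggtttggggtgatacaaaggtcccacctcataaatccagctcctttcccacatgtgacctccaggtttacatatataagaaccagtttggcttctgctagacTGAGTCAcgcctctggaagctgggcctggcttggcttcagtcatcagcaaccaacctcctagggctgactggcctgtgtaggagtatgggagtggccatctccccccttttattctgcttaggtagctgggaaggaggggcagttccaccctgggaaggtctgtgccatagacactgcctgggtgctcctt
Il1rn, downstream start, chr2:24345121-24345420, plus strand: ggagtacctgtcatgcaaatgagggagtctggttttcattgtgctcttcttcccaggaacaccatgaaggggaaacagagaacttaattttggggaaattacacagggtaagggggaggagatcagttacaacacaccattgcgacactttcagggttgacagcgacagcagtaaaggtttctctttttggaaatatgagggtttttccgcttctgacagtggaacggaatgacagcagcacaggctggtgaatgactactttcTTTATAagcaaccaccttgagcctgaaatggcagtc
Il7r, chr15:9529827-9530126, minus strand: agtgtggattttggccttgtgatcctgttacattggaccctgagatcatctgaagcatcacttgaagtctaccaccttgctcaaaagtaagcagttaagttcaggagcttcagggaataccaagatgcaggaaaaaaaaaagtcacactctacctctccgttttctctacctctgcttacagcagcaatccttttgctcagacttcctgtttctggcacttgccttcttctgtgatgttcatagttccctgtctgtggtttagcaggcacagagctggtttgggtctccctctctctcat
The motifs were AP-1 (TGACTCA), PU.1 (GAGGAAGT), STAT (TTCCNGGAA), a form of NF-kappaB (GGANTTTCC) and the TATA box (TATAAA). The first Il1rn window held 1 AP-1 match on its minus strand at position -141 from the start, a motif in 5.2% of the 32851 RefSeq promoter windows searched. The downstream Il1rn window held a TATA box on its minus strand at position 15, a motif in 13.6% of windows. The Il7r window and the other Il1rn window held none of the 5, and the other motifs were in 1.25% (NF-kappaB form), 3.2% (PU.1) and 1.15% (STAT) of windows. A match is a run of letters and not a shown binding site.

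Il27ra, on chromosome 8 (84756923 to 84769218, minus strand), encodes the ligand-binding chain for interleukin-27, a cytokine that acts on T cells. It had 6.41, 6.87, 6.49, 4.34 and 4.33 CPM in high-fat water mice and 1.82, 1.86, 2.74, 2.09 and 2.70 CPM in chow water mice. No value was shared between the ranges, with means of 5.69 ± 1.25 CPM in high-fat water and 2.24 ± 0.448 CPM in chow water mice (SD, n = 5 each). The log2 fold change was 1.34 (SE 0.25, edgeR adjusted p = 0.00284).

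Il22ra2, on chromosome 10 (19497746 to 19510429, plus strand), encodes a soluble decoy that binds interleukin-22. It had 0.330, 0.212, 0.0612, 0.115 and 0.214 CPM in high-fat water mice, on 4 to 27 reads per library. In chow water mice it had 1.11, 2.58, 2.58, 1.64 and 3.99 CPM. Every high-fat water library lay below every chow water library, and the log2 fold change was -3.66 (SE 0.55, edgeR adjusted p = 0.000702). The ligand Il22 had no read in any library.

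**Figure D3:**
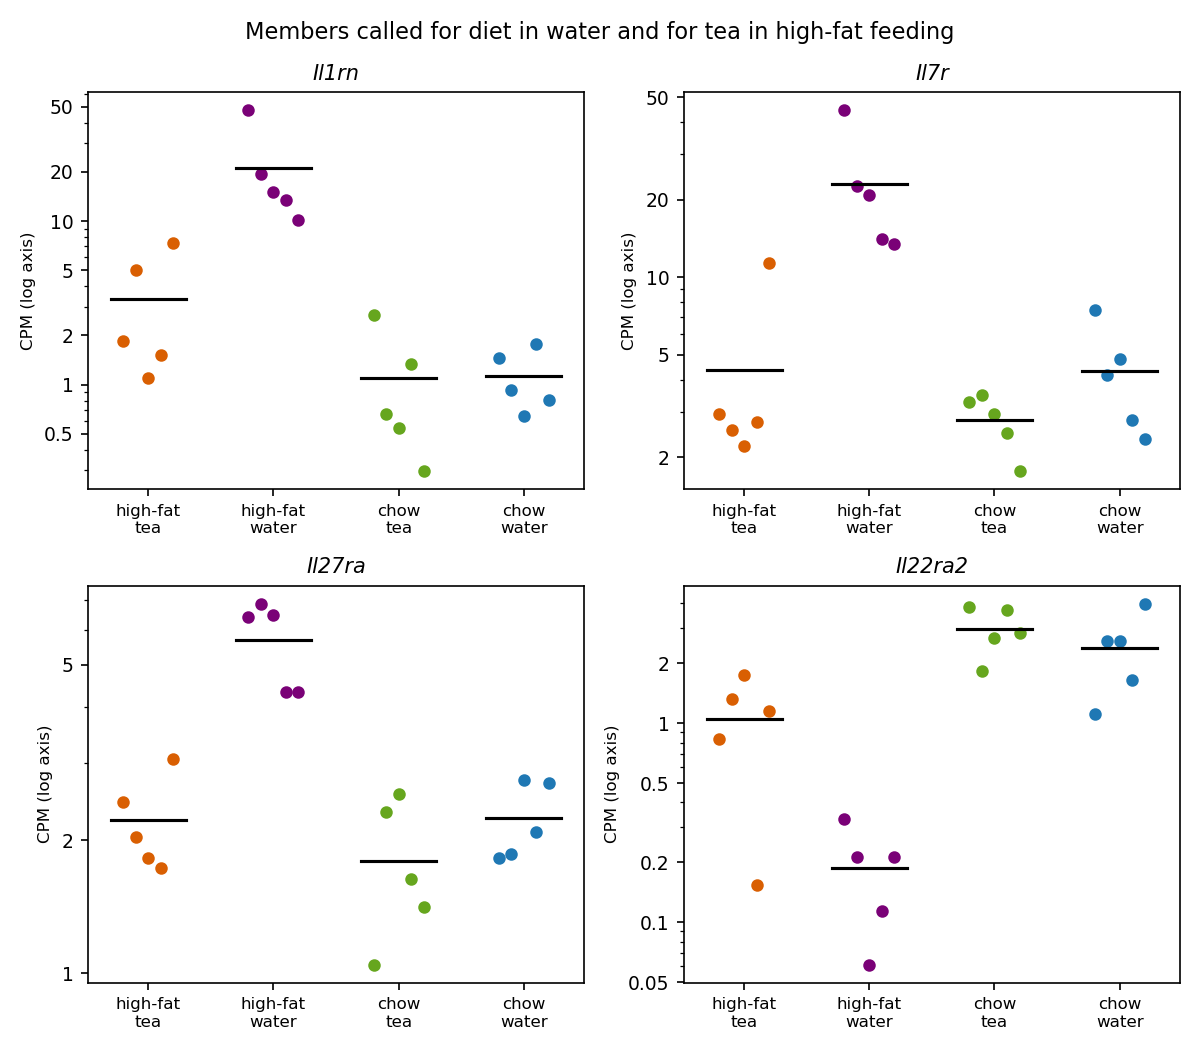
CPM on a log axis of Il1rn, Il7r, Il27ra and Il22ra2 in each of the 20 libraries, with the mean of each group as a line. In high-fat water mice the first 3 genes lie above the chow water mice (Il1rn means 21.2 and 1.12 CPM) and Il22ra2 below (0.186 and 2.38 CPM), and the high-fat tea means of Il1rn (3.35 CPM) and Il22ra2 (1.04 CPM) lie between those of high-fat water and chow water mice.

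The signalling chain for interleukin-22, Il22ra1 (chromosome 4, 135455483 to 135479451, plus strand), was called lower, and that call rested on 1 library. It had 0.147, 0.237, 0.153, 0.0573 and 0.0475 CPM in high-fat water mice and 86.9, 0.0865, 0.295, 0.229 and 0.163 CPM in chow water mice. The 86.9 CPM belong to chow water mouse 1, the library with pancreas transcripts, where intestine genes also summed to 5083 CPM. The part of either organ in this value was not tested. The log2 fold change was -7.08 (SE 1.98, edgeR adjusted p = 0.0234), and -0.64 without chow water mouse 1 (edgeR adjusted p = 0.717). Il18, a cytokine of the interleukin-1 family, showed the same library at 26.0 CPM, against 2.58 to 4.06 CPM in the other chow water mice and 2.34 to 3.79 CPM in high-fat water mice. Its log2 fold change of -1.25 (SE 0.53, edgeR adjusted p = 0.115) came to 0.09 without the 3 libraries.

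Tnfsf12, or TWEAK (chromosome 11, 69577076 to 69586675, minus strand), was the one TNF ligand called. It had 15.9, 10.9, 11, 11.2 and 8.01 CPM in high-fat water mice and 5.02, 6.95, 7.21, 6.01 and 7.44 CPM in chow water mice. Both ranges were separate, and the log2 fold change was 0.80 (SE 0.18, edgeR adjusted p = 0.00812). A readthrough gene, Tnfsfm13, shares 48.3% of the exonic bases of Tnfsf12 on the same strand, so reads between them are uncertain. The receptor of TWEAK, Tnfrsf12a, had a log2 fold change of 0.53 (SE 0.34, edgeR adjusted p = 0.315).

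Tnfrsf23 (chromosome 7, 143219546 to 143239609, minus strand) is a mouse decoy receptor for TRAIL that lacks a death domain. It had 8.52, 5.61, 4.04, 4.98 and 6.01 CPM in high-fat water mice and 2.18, 2.99, 2.23, 3.0 and 3.28 CPM in chow water mice. The groups did not overlap, with a log2 fold change of 1.09 (SE 0.28, edgeR adjusted p = 0.0164). The neighbouring decoy Tnfrsf22, a close copy that can share reads with it, averaged 8.61 ± 0.503 CPM in high-fat water and 5.21 ± 2.38 CPM in chow water mice (SD, n = 5 each) and had a log2 fold change of 0.72 (SE 0.25, edgeR adjusted p = 0.0616). The call of Tnfrsf23 was lost without high-fat water mouse 1, at an adjusted p of 0.0546.

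The calls of Il17d and Il6ra depended on single mice. Il17d (chromosome 14, 57762234 to 57780623, plus strand), a member of the interleukin-17 family, had 4.81, 3.99, 4.09, 2.46 and 2.80 CPM in high-fat water mice and 2.70, 1.47, 1.04, 1.97 and 1.85 CPM in chow water mice. Chow water mouse 1, at 2.70 CPM, lay above high-fat water mouse 4, and the log2 fold change was 1.01 (SE 0.28, edgeR adjusted p = 0.0232). It lost its call without chow water mouse 2 or 3, or without high-fat water mouse 1 or 2, with adjusted p up to 0.0678. Il6ra (chromosome 3, 89771366 to 89820503, minus strand) had 87.9, 69.8, 92.1, 42.3 and 63.7 CPM in high-fat water mice and 85.3, 170, 208, 106 and 142 CPM in chow water mice. Chow water mouse 1 overlapped the high-fat water mice, and the log2 fold change was -1.0 (SE 0.32, edgeR adjusted p = 0.0415). In 7 of 10 fits that left out 1 mouse the adjusted p of Il6ra was above 0.05, up to 0.103.

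**Figure D4:**
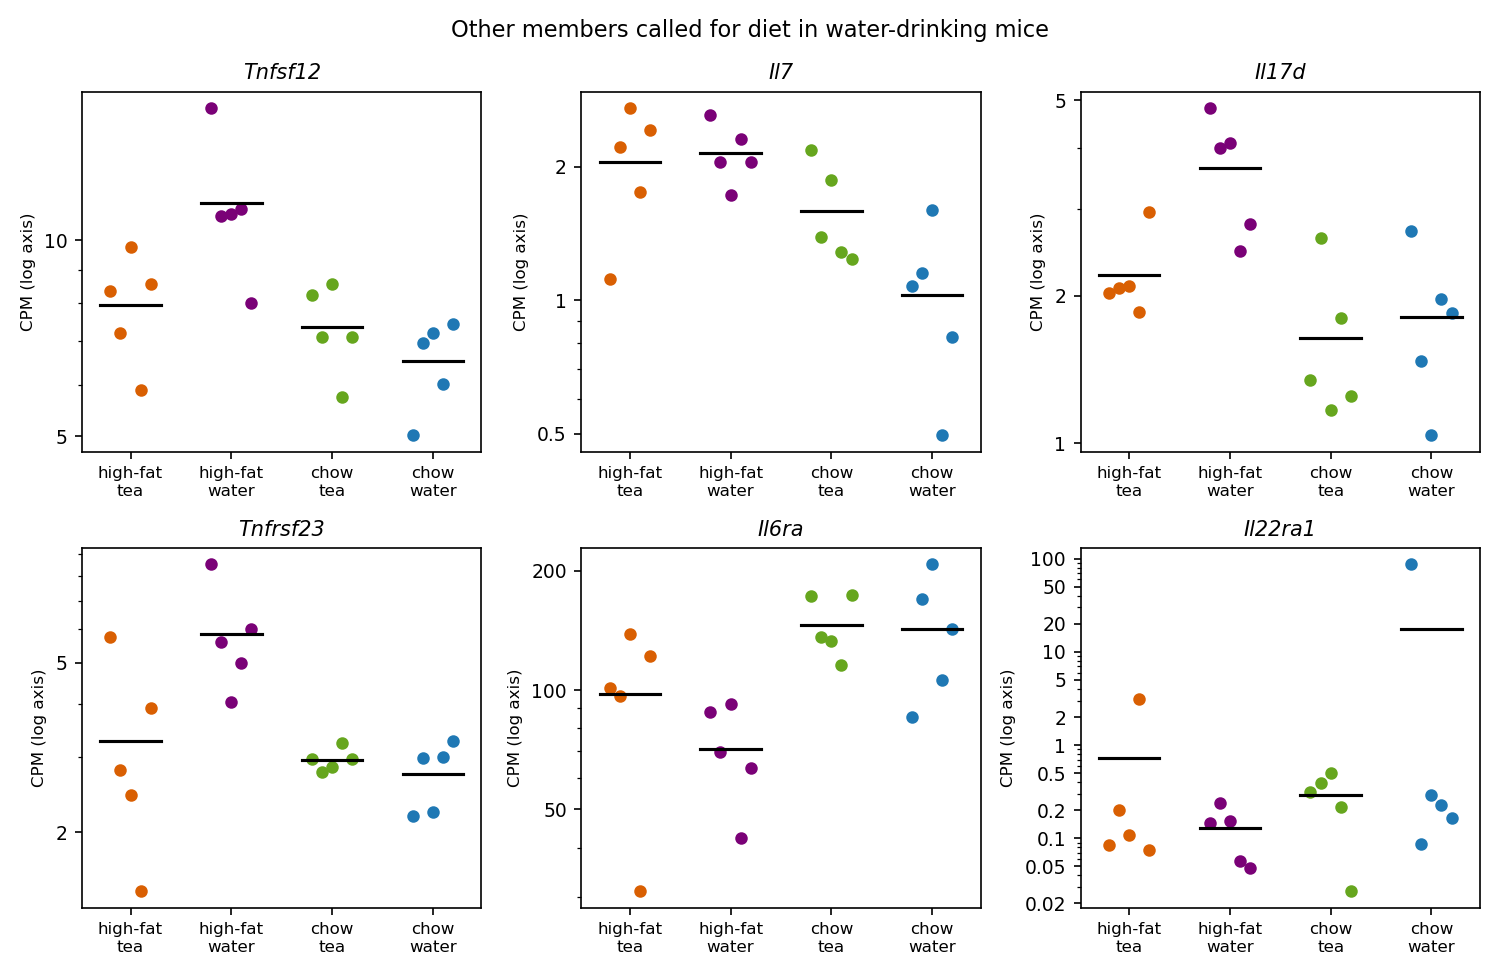
CPM on a log axis of the other 6 members called for high-fat water against chow water, in each of the 20 libraries, with group means as lines. Il22ra1 stands out by 1 chow water library at 86.9 CPM, and Il6ra means are 71.2 CPM in high-fat water and 142 CPM in chow water mice.

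TNF itself was low and spread widely. Tnf had 1.64, 0.475, 0.459, 0.554 and 0.308 CPM in high-fat water mice and 0.521, 0.274, 0.282, 0.229 and 0.151 CPM in chow water mice. The groups overlapped, and high-fat water mouse 1 stood above all others. The log2 fold change was 1.26 (SE 0.72, edgeR adjusted p = 0.244), and it moved to 0.65 without high-fat water mouse 1. Its receptors were far more abundant. Tnfrsf1a averaged 178 ± 9.08 CPM in high-fat water and 155 ± 18.8 CPM in chow water mice (SD, n = 5 each), a log2 fold change of 0.20 (SE 0.16, edgeR adjusted p = 0.431), and Tnfrsf1b had a log2 fold change of 0.51 (SE 0.31, edgeR adjusted p = 0.273).

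Interleukin-6 and interleukin-10 were near the limit of detection. Il6 had 0.171, 0.25, 0, 0.134 and 0.225 CPM in high-fat water mice and 0, 0, 0.0513, 0.0509 and 0.289 CPM in chow water mice, on 0 to 25 reads over all libraries. No order can be read from such counts, and the log2 fold change of 0.90 had an SE of 0.98 (edgeR adjusted p = 0.568). Il10, an anti-inflammatory cytokine, had a log2 fold change of 0.96 (SE 0.88, edgeR adjusted p = 0.486), with 0.906 CPM in high-fat water mouse 1 and 0.119 to 0.296 CPM in the other high-fat water mice. Il6st, the receptor chain shared by interleukin-6 and interleukin-27, was abundant and did not pass, with a log2 fold change of 0.04 (SE 0.16, edgeR adjusted p = 0.879).

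Il15, which supports natural killer and memory T cells, averaged 6.61 ± 1.17 CPM in high-fat water and 4.06 ± 2.36 CPM in chow water mice (SD, n = 5 each). Chow water mouse 1, at 8.08 CPM, stood above the other chow water mice at 1.85 to 3.60 CPM. The log2 fold change was 0.71 (SE 0.32, edgeR adjusted p = 0.144), and it came to 1.07 without that mouse (edgeR adjusted p = 0.0164). The alarmin Il33 had a log2 fold change of 0.41 (SE 0.34, edgeR adjusted p = 0.447) and its receptor Il1rl1 one of 0.66 (SE 0.40, edgeR adjusted p = 0.276). Il1rl1 reached 25 CPM in high-fat water mouse 3 and lay between 5.02 and 12.3 CPM in the other high-fat water mice.

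**Figure D5:**
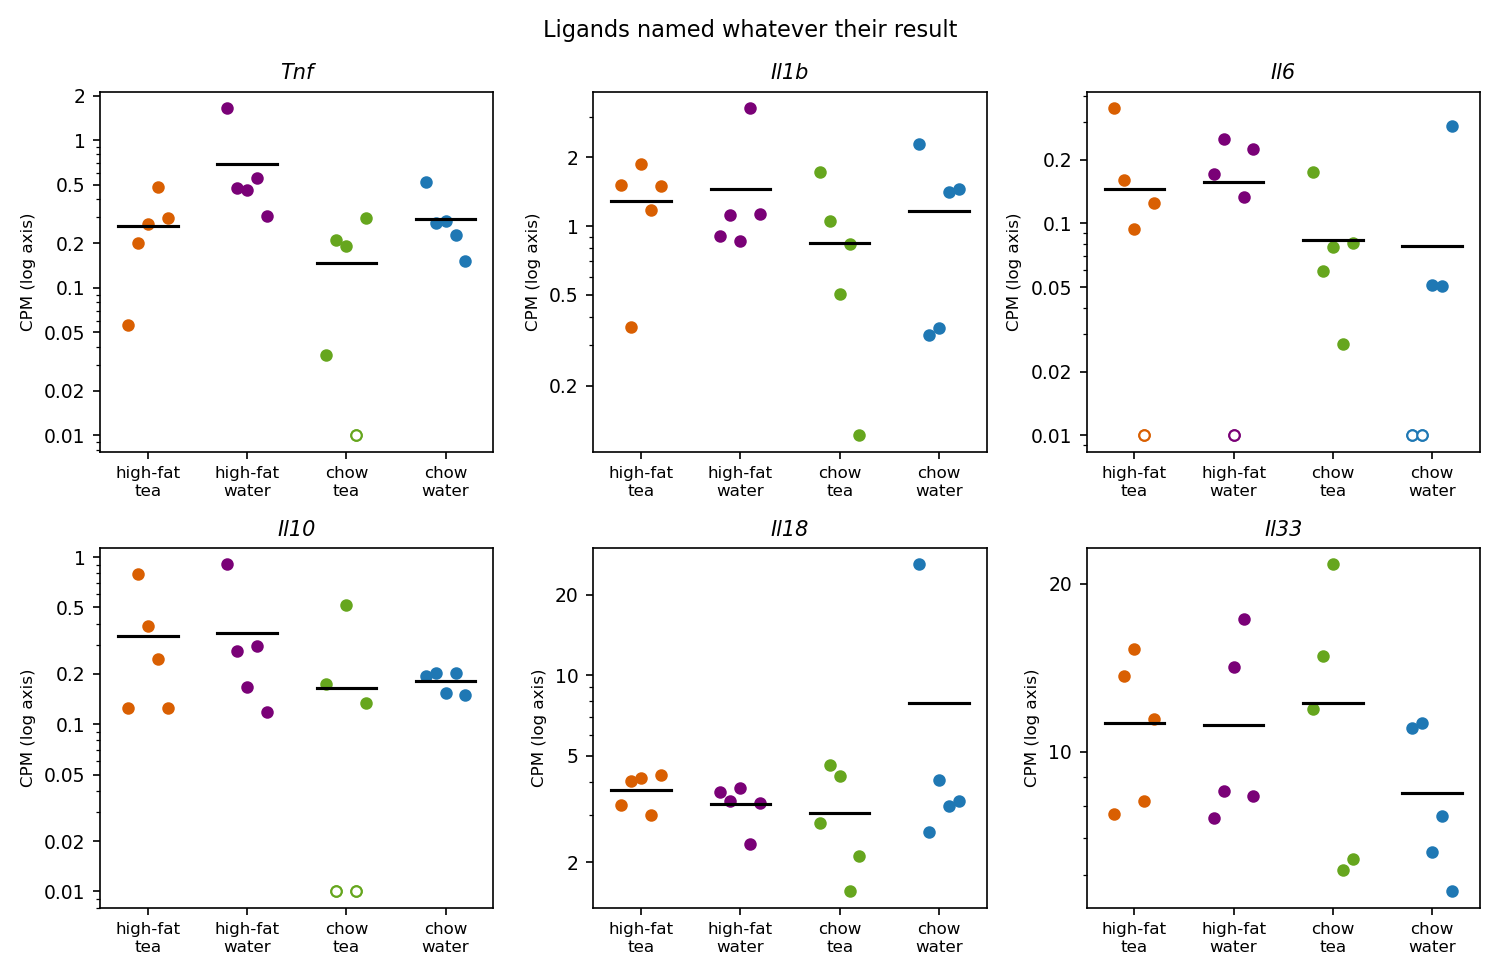
CPM on a log axis of Tnf, Il1b, Il6, Il10, Il18 and Il33 in each of the 20 libraries, with group means as lines and open circles for libraries with 0 reads. The groups overlap for each of these ligands, and Il18 has 1 high library, chow water mouse 1 at 26.0 CPM.

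Tea on the high-fat diet was set against water on the same diet to ask whether tea changed the response. Il1rn fell 6.30-fold, Il7r 5.29-fold and Il27ra 2.56-fold in high-fat tea mice, and Il22ra2 rose 5.56-fold. No ligand was called. These 4 members were also called for diet, at log2 fold changes of 4.24, 2.43, 1.34 and -3.66 in that order. Both comparisons use the same high-fat water mice, so they are not independent of each other.

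In this comparison 4 of 89 members (4.49%) passed the edgeR test, against 4.36% of all genes, with 3 lower and 1 higher. Over all genes 2.3% were lower and 2.06% higher. In 5 members the groups did not overlap, all lower in high-fat tea mice (Il1rn, Tnfrsf22, Il27ra, Tnfrsf13b and Il7r), which is 5.62% of members against 5.55% of all genes (3.18% lower). The median log2 fold change of the 89 members was -0.14, against 0.02 over all genes. By role it was -0.10 over 27 ligands, -0.14 over 52 receptors and -0.68 over 8 antagonists and decoys, of which 6 had an unadjusted p below 0.05, against 23.6% of all genes. All 4 calls were lost when only the high-fat libraries entered the fit, with adjusted p from 0.0577 to 0.0902, and in that fit 21 of 19709 genes passed. Without the 3 libraries with pancreas, kidney or reproductive tract transcripts 5 of 90 members passed, the 4 named and Il15ra, against 7.48% of all genes in that fit. Without high-fat tea mouse 1, the one with most muscle RNA, 4 passed, with Tnfrsf23 in place of Il1rn, against 3.23% of all genes in that fit.

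Il1rn had 1.86, 4.99, 1.10, 1.51 and 7.31 CPM in high-fat tea mice 1 to 5, against the 10.2 to 47.7 CPM of high-fat water mice. The groups did not overlap. The means were 3.35 ± 2.69 CPM in high-fat tea and 21.2 ± 15.2 CPM in high-fat water mice (SD, n = 5 each), a log2 fold change of -2.66 (SE 0.64, edgeR adjusted p = 0.0277). The call was lost in 6 of 10 fits that left out 1 mouse (high-fat water mouse 1 or 2, or high-fat tea mouse 1, 2, 3 or 4), with adjusted p between 0.010 and 0.0936 and log2 fold changes between -3.16 and -2.11.

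Il7r had 2.93, 2.56, 2.22, 2.75 and 11.4 CPM in high-fat tea mice, against 13.5 to 44.7 CPM in high-fat water mice. The ranges were separate, and high-fat tea mouse 5 stood apart from its group. The log2 fold change was -2.40 (SE 0.48, edgeR adjusted p = 0.0129), and every fit that left out 1 mouse kept the call. Il27ra had 2.44, 2.03, 1.83, 1.73 and 3.06 CPM in high-fat tea mice, against 4.33 to 6.87 CPM in high-fat water mice. Its log2 fold change was -1.36 (SE 0.25, edgeR adjusted p = 0.00984), and it too kept its call whichever mouse was left out.

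Il22ra2 had 0.838, 1.33, 1.75, 0.154 and 1.16 CPM in high-fat tea mice, against 0.0612 to 0.330 CPM in high-fat water mice. High-fat tea mouse 4 lay within the range of high-fat water mice and the other 4 lay above it. The means were 1.04 ± 0.596 CPM in high-fat tea and 0.186 ± 0.104 CPM in high-fat water mice (SD, n = 5 each), a log2 fold change of 2.47 (SE 0.53, edgeR adjusted p = 0.0178). Leaving out high-fat tea mouse 3 took the adjusted p to 0.0524, and limma voom did not call the gene.

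By edgeR with all libraries, the other members called for diet did not pass with tea. Tnfrsf23 averaged 3.27 ± 1.64 CPM in high-fat tea and 5.83 ± 1.68 CPM in high-fat water mice (SD, n = 5 each), a log2 fold change of -0.83 (SE 0.28, edgeR adjusted p = 0.0901). It was called lower by limma voom (adjusted p = 0.0419), by DESeq2 (adjusted p = 0.0342) and by edgeR without high-fat tea mouse 1 (adjusted p = 0.0295). Tnfsf12 had a log2 fold change of -0.52 (SE 0.18, edgeR adjusted p = 0.0990) and Il17d one of -0.72 (SE 0.28, edgeR adjusted p = 0.128). Il7 had nearly equal means, 2.05 ± 0.626 CPM in high-fat tea and 2.15 ± 0.333 CPM in high-fat water mice (SD, n = 5 each), a log2 fold change of -0.07. Il6ra averaged 97.9 ± 41.0 CPM in high-fat tea and 71.2 ± 20.1 CPM in high-fat water mice (SD, n = 5 each), a log2 fold change of 0.46 (SE 0.32, edgeR adjusted p = 0.403).

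Tnf had 0.0559, 0.201, 0.269, 0.479 and 0.299 CPM in high-fat tea mice, against 0.308 to 1.64 CPM in high-fat water mice. The ranges overlapped, and the log2 fold change was -1.40 (SE 0.71, edgeR adjusted p = 0.246). Among receptors Tnfrsf1b had a log2 fold change of -0.74 (SE 0.31, edgeR adjusted p = 0.155) and Il1rl1 one of -1.12 (SE 0.40, edgeR adjusted p = 0.104). The log2 fold changes of Il1b (-0.19), Il6 (-0.10), Il10 (-0.06), Il15 (0.02), Il18 (0.18), Il33 (0.01), Il1r1 (-0.22), Il6st (0.16) and Tnfrsf1a (-0.11) had edgeR adjusted p values between 0.489 and 0.991.

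No member passed the edgeR test in the other comparisons. For tea against water on chow, 7 of 89 members had an unadjusted p below 0.05, against 12.4% of all genes. None was called, against 0.0235% of all genes, and DESeq2 also called none, against 1.28% of all genes by DESeq2. The lowest adjusted p among the 14 genes named in every comparison was that of Il18, with a log2 fold change of -1.36 (SE 0.53, edgeR adjusted p = 0.298) that includes chow water mouse 1. For high-fat tea against chow tea, 5 of 89 members had an unadjusted p below 0.05, against 16.3% of all genes. None was called, against 0.178% of all genes, and DESeq2 called Il22ra2, against 4.52% of all genes by DESeq2. There Il22ra2 had 0.154 to 1.75 CPM in high-fat tea and 1.83 to 3.82 CPM in chow tea mice, a log2 fold change of -1.51 (SE 0.51, edgeR adjusted p = 0.176). It was the one member without overlap, where 2.77% of all genes had none. Il1rn averaged 3.35 ± 2.69 CPM in high-fat tea and 1.10 ± 0.951 CPM in chow tea mice (SD, n = 5 each).

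The interaction of diet and tea asks whether tea acted differently on the high-fat diet than on chow. It is the tea effect on the high-fat diet minus that on chow. By edgeR none of the 89 members passed, against 0.0657% of all genes, and 11 of 89 had an unadjusted p below 0.05, against 15% of all genes. DESeq2 called 4 of 86, Il17rb, Il17re, Il1rn and Il22ra2, against 3.39% of all genes by DESeq2. The edgeR estimates of the 4 members called within the high-fat diet were -2.62 for Il1rn (SE 0.87, adjusted p = 0.162), -1.78 for Il7r (SE 0.65, adjusted p = 0.196), -1.03 for Il27ra (SE 0.35, adjusted p = 0.173) and 2.16 for Il22ra2 (SE 0.71, adjusted p = 0.160). A difference of the tea effect between the diets was thus not shown by the edgeR test. On chow the means of Il1rn were 1.10 ± 0.951 CPM with tea and 1.12 ± 0.481 CPM with water (SD, n = 5 each), and those of Il7r were 2.78 ± 0.684 CPM with tea and 4.31 ± 2.01 CPM with water (SD, n = 5 each).

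Genes that act downstream were described from lists. Over all genes tested, 8.06% were higher and 7.11% lower in high-fat water than in chow water mice. For tea on the high-fat diet 2.06% were higher and 2.3% lower. Of 22 NF-kappaB targets and feedback genes, 7 were higher and 0 lower in high-fat water than in chow water mice, with a median log2 fold change of 0.27. They included Tnfaip3, the A20 inhibitor of NF-kappaB (0.89, edgeR adjusted p = 0.0188), the inhibitor Nfkbie (0.84, edgeR adjusted p = 0.0208) and the chemokine Cxcl1 (2.20, edgeR adjusted p = 0.0223). Ptgs2 was also among the 7 and reached 56.8 CPM in high-fat water mouse 4 alone. Without the 3 libraries 5 of the 22 were higher, and Cxcl1 and Ptgs2 were no longer called. That fit called 21.2% of all genes in either direction. With tea on the high-fat diet 2 of the 22 were lower, Tnfaip3 (-0.98, edgeR adjusted p = 0.0287) and Ptgs2 (-4.39, edgeR adjusted p = 0.0433), and without the 3 libraries these were Tnfaip3 and Nfkb2. For tea that fit called 7.48% of all genes. Tnfaip3 averaged 11.6 ± 2.81 CPM in high-fat tea and 23.0 ± 4.87 CPM in high-fat water mice (SD, n = 5 each).

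Of 24 signalling proteins of TNF and interleukin-1 receptors, 2 adaptors were higher in high-fat water than in chow water mice, Traf3 (0.86, edgeR adjusted p = 0.00963) and Traf5 (0.43, edgeR adjusted p = 0.0400), with a list median of -0.01. Over all genes 8.06% were higher and 7.11% lower in this comparison. Of 18 JAK and STAT pathway genes, the transcription factor Stat6 was higher (0.50, edgeR adjusted p = 0.0205) and the feedback inhibitor Socs2 (-1.03, edgeR adjusted p = 0.0216), the phosphatase Ptpn2 (-0.43, edgeR adjusted p = 0.0270) and Stat3 were lower, with a list median of 0.26. None of 12 further TNF superfamily genes with other names, such as Fas and Cd40, passed, nor did any of 11 enzymes that process or shed these cytokines. With tea on the high-fat diet 1 gene of these 4 lists was called, Adam17, the protease that releases TNF from the cell surface, at 45.8 ± 5.74 CPM in high-fat tea and 61.8 ± 7.69 CPM in high-fat water mice (SD, n = 5 each), a log2 fold change of -0.43 (edgeR adjusted p = 0.0429). In that comparison 4.36% of all genes were called. Without the 3 libraries, 2 of the other TNF superfamily genes (Ltbr and Relt), 3 signalling proteins, 5 JAK and STAT genes and 2 enzymes were higher in high-fat water mice, and 0, 1, 2 and 0 were lower, and the call of Socs2 was lost. For tea on the high-fat diet, that fit called Traf3 and Adam17 lower and Stat3 higher. It called 21.2% of all genes for diet and 7.48% for tea on the high-fat diet. None of these lists had a called gene in the other 3 comparisons with all libraries, and without the 3 libraries Socs2 was called lower for high-fat tea against chow tea.

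Markers of lipid-associated macrophages were called in the same comparisons. Over all genes 8.06% were higher in high-fat water than in chow water mice, and 2.3% were lower with tea on the high-fat diet. Of 12 markers of lipid-associated macrophages, the foam-like macrophages of obese fat, 7 were higher and 0 lower in high-fat water than in chow water mice, with a median of 1.81, among them Trem2 (4.04) and Mmp12 (7.45). Trem2 lay at 24.5 to 101 CPM in high-fat water and 1.92 to 4.51 CPM in chow water mice, and its highest library, high-fat water mouse 1, was also the highest for Il1rn, Il7r and Tnf. That library was the highest for 17 of the 89 tested members, more than any other library. Il27ra was highest in high-fat water mouse 2 and Il1b in high-fat water mouse 4. With tea on the high-fat diet 5 of the 12 were lower and none higher, with a median of -1.57, and Trem2 lay at 1.95 to 20.3 CPM in high-fat tea mice, highest in mouse 5, the mouse with the highest Il1rn and Il7r of that group. The summed level of the 12 markers was 5327 to 16099 CPM in high-fat tea, 10383 to 20250 CPM in high-fat water, 13126 to 17839 CPM in chow tea and 5314 to 16708 CPM in chow water mice, a sum led by Lpl and Cd36, which fat cells also express. None of the 12 was at 0 in a group, and the part of these cells in the results was not tested.

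Of 10 general macrophage markers 3 were higher (Adgre1, Fcgr1 and Cd68) and 2 lower (Mertk and Cd14) in high-fat water than in chow water mice, with a median of 0.72, and none was called for tea on the high-fat diet, with a median of -0.50. Over all genes 15.2% were called for diet and 4.36% for tea on the high-fat diet. Without the 3 libraries 2 of the 10 were higher and 3 lower for diet and 1, Adgre1, was lower with tea. That fit called 21.2% of all genes for diet and 7.48% for tea on the high-fat diet. The summed level of the 10 markers was 527 to 1657 CPM in high-fat tea, 1118 to 2742 CPM in high-fat water, 891 to 1628 CPM in chow tea and 515 to 1760 CPM in chow water mice. Of 11 T cell markers, beside Il7r and Il27ra, Trac was higher (1.23) and Cd3e lower (-1.54) in high-fat water than in chow water mice, and Trac was lower with tea (-1.86, edgeR adjusted p = 0.00915). The call of Cd3e was lost without the 3 libraries. The T cell sum was 9.63 to 35.9 CPM in high-fat tea, 11.1 to 25.5 CPM in high-fat water, 11.8 to 19.6 CPM in chow tea and 12.4 to 40.9 CPM in chow water mice. None of these markers was at 0 in a group, and their part in the results was not tested.

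Beside Il22ra2, 1 of 4 tested lymph node stroma markers was called, the chemokine Cxcl13. It was lower in high-fat water than in chow water mice (-2.96), where the median of the 4 was -1.69. The 5 lymph node stroma markers summed to 9.45 to 75.2 CPM in high-fat tea, 6.37 to 14.1 CPM in high-fat water, 34.6 to 81.4 CPM in chow tea and 32.5 to 71.3 CPM in chow water mice. Glycam1 was at 0 in all high-fat water mice. Of 8 B cell markers 0 were called for diet (median 0.27) and 0 for tea on the high-fat diet (median -0.33). B cell sums were 5.76 to 14.7 CPM in high-fat tea and 6.07 to 19.1 CPM in high-fat water mice. They were 3.77 to 17.3 CPM in chow tea and 3.18 to 23.4 CPM in chow water mice. Of 6 dendritic cell markers Ccr7 (1.17) and Clec9a (0.62) were higher and Zbtb46 (-0.67) lower in high-fat water than in chow water mice, and none was called for tea on the high-fat diet. Over all genes 15.2% were called for diet and 4.36% for tea on the high-fat diet. Without the 3 libraries Ccr7 was lower and Cxcl13, like Il22ra2, was higher with tea on the high-fat diet, where 7.48% of all genes were called. How far lymph node tissue in a sample bears on Il22ra2 was not tested.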

How the data were processed

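Total RNA of white adipose tissue was extracted with TRIzol and prepared with a stranded mRNA kit from Illumina, per the labels' protocols. The authors deposited raw counts of reads per gene, 1 table per library, made with featureCounts 2.0.6 on GENCODE vM32 of GRCm39, per the file headers. The submitters' processing notes also name fastp 0.23.2, HISAT2 2.2.1 and the build mm10. Coordinates of genes in the text are the files' GRCm39, counted from 1, and promoter windows are from RefSeq on GRCm38.p6, which held 88 of the 117 members. Both reads of a pair were counted, per the file headers, and 68.1% to 72.2% of the counts from 1 to 20 were even, so counts overstate independent fragments. No strand option was set, so opposite-strand reads cannot be separated: 31 members overlap exons of another gene, 28 of them on the opposite strand. The overlap was 4.14% of exonic bases for Tnfrsf23, 2.8% for Il6ra and 1.85% for Il7. Il11ra1 and Il11ra2, Tnfrsf22, Tnfrsf23 and Tnfrsf26, and Il22 and Il22b are close copies that can exchange reads.

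Genes with low counts were removed with filterByExpr (10 counts in 5 libraries and 15 in total), which left 21306 genes and removed 35499. Counts were scaled by TMM and tested with edgeR 4.0.16 in R 4.3.3 (quasi-likelihood F test on 4 group means over all 20 libraries, common biological coefficient of variation 0.593), with Benjamini-Hochberg adjustment over all genes tested and a threshold of 0.05. CPM use the TMM-scaled library size. The SE given with an edgeR log2 fold change is its absolute value divided by the square root of the F statistic. The design text describes random assignment of separate mice, so p-values measure the spread between mice, sampling and library preparation. Libraries of the same group were compared in 40 pairs, with a chi-square of at least 61.6 per gene, so none repeated another. The test was also run on simulated counts. Their spread between mice was fixed below that found here, with low-count genes and transcripts of other organs left out. That run therefore does not give the error rates for these data. Alternatives were DESeq2 1.42.0, limma 3.58.1 voom, other scaling, filters and sets of libraries.

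Members named with statistics were every called member and 14 fixed ones (Tnf, Tnfrsf1a, Tnfrsf1b, Il1b, Il1rn, Il1r1, Il6, Il6ra, Il6st, Il10, Il15, Il18, Il33 and Il1rl1), the 5 most abundant per role, and up to 3 called genes per pathway list. Others were named where they touch these results and were chosen after their values were seen. The members, roles, pathway lists and marker lists were chosen with earlier results of these data known.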

Additional observations from a re-analysis of the deposited data

Results flagged for a closer look

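Each of 22 members was screened within each group of 5 for a library far from the others, by its gap to the nearest library over the range of the group on the log2(CPM + 0.1) scale, with a critical value of 0.71. Of 88 combinations 11 exceeded it, and chance alone exceeds it in about 1 in 20. High-fat tea mouse 4 carries kidney and intestine transcripts. In that mouse Il22ra1 had 3.15 CPM against 0.0747 to 0.201 CPM in the other mice of its group (0.814). Il15 had 12.1 against 4.84 to 5.94 CPM there (0.78), Il6st 349 against 517 to 565 CPM (0.818) and Il6ra 31.0 against 96.6 to 138 CPM (0.759). In high-fat tea mouse 5, Il7r had 11.4 against 2.22 to 2.93 CPM (0.831) and Il17d 2.96 against 1.85 to 2.09 CPM (0.741).

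In high-fat water mouse 4, which carries reproductive tract and adrenal transcripts, Tnfrsf1a had 162 against 182 to 183 CPM in its group (0.933), Il1b 3.28 against 0.857 to 1.13 CPM (0.803) and Il18 2.34 against 3.33 to 3.79 CPM (0.731). In chow water mouse 1, which carries pancreas and intestine transcripts, Il22ra1 had 86.9 against 0.0865 to 0.295 CPM (0.878) and Il18 26.0 against 2.58 to 4.06 CPM (0.807). Of the 11, 9 lay in these 3 libraries, and the part of the other organs' RNA in them was not tested. Libraries with skeletal muscle RNA, high-fat tea mouse 1 and high-fat water mouse 5 among them, had none of the 11.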

How the results depend on the processing

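For high-fat water against chow water, the count of members called was 5 to 14 when 1 mouse was left out, 9 with a replicate block and 18 without the 3 libraries with pancreas, kidney or reproductive tract transcripts. In these fits 8.69% to 15.8%, 12.3% and 21.2% of all genes were called, in that order. Il1rn, Il7r, Il27ra, Il22ra2 and Tnfsf12 kept their calls in every alternative run. For high-fat tea against high-fat water the count was 2 to 5 with 1 mouse left out and 4 with the block. It was 0 with only the high-fat libraries in the fit. Of all genes 0.975% to 9.26%, 2.97% and 0.107% were called in these fits. The last of these fits takes its spread from the high-fat libraries alone. With only the water libraries in the fit, 10 members and 13.6% of all genes were called for diet. The cause of this difference was not tested. The count of members was 0 to 0 for chow tea against chow water, 0 to 1 for high-fat tea against chow tea (DESeq2 1) and 0 to 1 for the interaction (DESeq2 4), with the cause not tested. The median receptor minus the median ligand log2 fold change for diet was -0.19, -0.46 under limma voom and -0.42 to -0.10 with 1 mouse left out; the cause was not tested.

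Turned in sign without the 3 libraries were Il18 (0.094) and Il6st (-0.10) for diet, and Il15 (-0.21), Il1b (0.38), Il22ra1 (-0.30), Il6 (0.16), Il7 (0.0060) and Tnfrsf1a (0.022) for tea on the high-fat diet, where Il15 was also -0.091 under limma voom and Il33 -0.0050 with the block; none of these was called. With 1 mouse left out, the values that turned ranged from -0.21 to 0.67 (Il1b), -0.19 to 0.10 (Il1r1) and -0.13 to 0.13 (Il6st) for diet. For tea on the high-fat diet they ranged from -0.67 to 0.65 (Il10), -0.30 to 0.15 (Il15), -0.37 to 0.37 (Il1b), -0.11 to 2.82 (Il22ra1), -0.12 to 0.24 (Il33), -0.69 to 0.21 (Il6), -0.19 to 0.084 (Il7) and -0.19 to 0.055 (Tnfrsf1a). Of 402 values under other settings 370 kept direction and side of the threshold, 14 lost and 8 gained a call. For single members the other 3 comparisons were rerun only for 7 values given in the text.

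Replicate numbers were not used as pairs in the main fit. Of 30 same-number correlations 11 were above 0.1 (-0.338 to 0.581), and 6 of 20 libraries were closest to their own number. Correlations of different numbers are not given beside them, so these values cannot exclude pairing. Counts of calls in pathway and marker lists without the 3 libraries were an alternative chosen after seeing the data: for diet, 8 of the lipid-associated macrophage markers were then higher, and for tea on the high-fat diet 7 were lower. That fit called 21.2% of all genes for diet and 7.48% for tea on the high-fat diet. Depth limits the ligands most, since Il6, Tnf and Il10 rest on few reads.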
